A study of Mus musculus with 14 samples.

Results

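The mouse Zfp genes encode zinc finger proteins, most of them transcription factors that bind DNA through repeated fingers of the C2H2 type. A gene was taken as a member when a probe set on the array carried a single symbol of the form Zfp and a number, and when the mean of log2(signal + 16) over all 14 arrays was above 5.6416. Zfp36, which encodes an RNA-binding protein of another finger class, was left out, and the probe set with the highest mean stood for its gene. This gave 257 members of 304 such genes on the array, among 12817 genes tested. Of the 47 that stayed below the limit, 46 were above its signal of 33.9 on at least 1 array, with 186.7 as their highest value. Zfp316 (mean 5.6425) lay just inside the limit and Zfp229 (5.6382) just outside it. Zfp143, Zfp366 and Zfp609 were not analysed here.

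Many Zfp proteins carry a KRAB domain, which recruits the corepressor Trim28 (KAP1) and, through it, the histone methyltransferase Setdb1, HP1 proteins and the NuRD complex to silence chromatin. KRAB zinc finger genes arose by repeated local duplication, so many lie side by side in the genome, and a large share of them bind transposable elements. Members without KRAB have other tasks, among them control of RNA, of translation and of lymphocyte development.

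The arrays measured total RNA of peritoneal cells from female C57Bl/6 x C3H F1 mice aged 12 to 16 weeks and kept 5 to a cage. The 2 naive arrays carry RNA of mice labelled naive, and 3 arrays RNA of mice given lipopolysaccharide (LPS) of Salmonella minnesota intravenously at 60 µg per mouse. 3 arrays each came from mice that had received SMD, an agent whose name the labels do not spell out, on the nares under halothane at 100, 200 or 300 mg/kg 30 min before the same LPS dose. Cells of the SMD groups were harvested 2.0 h after LPS. No source used here gives the harvest time of the LPS group, what vehicle naive and LPS mice received, or whether an array stands for 1 mouse or a pool. The labels call the LPS and SMD arrays biological replicates and the naive ones only replicates, so p-values measure the spread between these arrays, which may be technical for naive mice.

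The labels call the cells macrophages, and the resident macrophage gene Adgre1 had a signal of 15879 to 25125 on every array. Lymphocyte, mast cell and neutrophil transcripts were present as well. The summed signal of 8 B cell markers was 54318 to 57547 in naive mice and 31968 to 34129 after LPS. At 100 mg/kg SMD it was 20961 to 32225, at 200 mg/kg 28453 to 35565 and at 300 mg/kg 37777 to 44456. Ms4a1 gave the largest part, with 12362 to 18181 after LPS alone and 18859 to 21438 at 300 mg/kg. By mean log2 change, 6 of the 8 were higher at 300 mg/kg than with LPS alone and 2 lower. Cd79a was among the lower ones, with 1419 to 4314 after LPS alone and 740 to 2725 at 300 mg/kg. The summed signal of 8 neutrophil markers was 3134 to 4004 in naive mice and 21288 to 23715 after LPS. At 100 mg/kg it was 16267 to 30853, at 200 mg/kg 29531 to 30000 and at 300 mg/kg 36350 to 48101. In LPS-challenged mice most of this sum came from S100a8 and S100a9, at 21437 to 25299 and 12604.5 to 17994 at 300 mg/kg. Csf3r went the other way, with 1911 to 3395 after LPS alone and 890 to 1493 at 300 mg/kg. The sum of 6 T cell markers was 1662 to 1935 in naive mice, 782 to 1172 after LPS, 793 to 1291 at 100 mg/kg, 1729 to 2245 at 200 mg/kg and 2541 to 3805 at 300 mg/kg. For 10 macrophage markers it was 141889 to 145234, 108570 to 113537, 105569 to 124971, 100084 to 126494 and 126989 to 142179 in the same order, and for 5 mast cell markers it lay between 40342 and 52673 throughout. No marker was at 0. Cxcr2 of neutrophils, Epx and Prg2 of eosinophils and Msln, Upk3b and Wt1 of mesothelial cells were below the limit for testing. The 3'/5' signal ratio of actin, which is higher where RNA is shorter, averaged 2.94 in naive mice and 3.32 after LPS. At the 3 doses it averaged 6.21, 9.81 and 14.02. Single arrays of the LPS group ran from 1.93 to 5.86. The ratio of Gapdh ran from 6.78 to 8.86 in naive mice and from 4.54 to 92.05 after LPS. At the 3 doses it ran from 20.96 to 74.2, 66.99 to 114.46 and 32.19 to 178.71. The part of cell makeup and of RNA length in the results below was not tested, and fewer cells of a type cannot be told apart from less RNA per cell.

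RefSeq promoters of assembly GRCm38.p6 were matched for 212 members. Of these, the 250 bases before the transcription start are printed for 4 members that the results below turn on, with each CG dinucleotide in capitals. Zfp503 (minus strand, chr14:21989602-21989851) and Zfp281 (plus strand, chr1:136624651-136624900) rose after LPS. Zfp760 (plus strand, chr17:21707491-21707740) fell after LPS and Zfp945 (minus strand, chr17:22867135-22867384) fell after LPS and rose with SMD.
Zfp503: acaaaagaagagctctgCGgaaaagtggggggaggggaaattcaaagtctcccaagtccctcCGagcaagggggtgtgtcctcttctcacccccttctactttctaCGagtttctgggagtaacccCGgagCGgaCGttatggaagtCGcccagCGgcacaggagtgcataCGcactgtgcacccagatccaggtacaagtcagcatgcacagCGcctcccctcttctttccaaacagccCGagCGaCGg
Zfp281: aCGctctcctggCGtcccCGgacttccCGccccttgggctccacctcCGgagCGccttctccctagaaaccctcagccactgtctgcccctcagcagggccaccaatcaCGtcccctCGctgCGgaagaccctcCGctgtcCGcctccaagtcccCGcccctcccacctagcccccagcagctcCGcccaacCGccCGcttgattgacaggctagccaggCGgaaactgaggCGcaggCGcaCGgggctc
Zfp760: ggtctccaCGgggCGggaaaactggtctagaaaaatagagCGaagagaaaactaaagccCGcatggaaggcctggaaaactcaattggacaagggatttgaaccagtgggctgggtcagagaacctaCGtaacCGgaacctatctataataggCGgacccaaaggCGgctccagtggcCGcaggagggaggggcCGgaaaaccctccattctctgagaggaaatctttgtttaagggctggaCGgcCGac
Zfp945: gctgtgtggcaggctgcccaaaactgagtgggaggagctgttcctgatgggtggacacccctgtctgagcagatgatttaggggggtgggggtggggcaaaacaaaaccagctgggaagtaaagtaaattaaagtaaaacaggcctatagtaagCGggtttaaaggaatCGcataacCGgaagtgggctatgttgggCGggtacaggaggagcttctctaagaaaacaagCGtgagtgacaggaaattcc
The 4 stretches held 13, 19, 12 and 5 CG dinucleotides in the order shown. CG were also counted over 300 bases, 250 before the start and 50 after it, as a mean over the promoters of a gene. The median was 16 for the members and 7 for all 27025 genes with a promoter. Those 27025 were not filtered by signal and include genes not tested here, unlike the members. Whether the members differ in CG from the 12817 tested genes was not examined. The median number of CG was 19.5 for the 6 matched members that rose after LPS, 14 for the 63 that fell and 17 for the 143 that did not pass.

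Both motifs of the inflammatory response that were searched, on either strand, were rare in these promoters. A gene counted where any of its promoters held the motif, and all genes with a promoter, tested or not, were the comparison. The kappa B motif of NF-kB, searched without mismatches, stood in 2 of 212 members (0.943%) and in 0.466% of all genes. The interferon-stimulated element, a pair of GAAA runs with any 2 bases between them, stood in 6 of 212 (2.83%) and in 3.99% of all. Zfp213 was the only member with either motif among the 6 that rose and had a matched promoter, and Zfp617, with kappa B, the only one among the 63 that fell. The upstream 250 bases of Zfp213 (minus strand, chr17:23564227-23564476) are printed with the interferon element in capitals.
Zfp213: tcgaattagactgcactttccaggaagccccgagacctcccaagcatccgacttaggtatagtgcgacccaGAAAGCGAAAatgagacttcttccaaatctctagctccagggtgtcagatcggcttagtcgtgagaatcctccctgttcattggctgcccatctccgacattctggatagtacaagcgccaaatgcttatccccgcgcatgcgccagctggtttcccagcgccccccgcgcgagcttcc
The element starts 179 bases before the transcription start, and a match describes the letters in this window only.

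Naive mice served as the baseline for the effect of LPS. Transcripts of the family were lower after LPS as a group. 73 of 257 members fell and 9 rose (limma, Benjamini-Hochberg adjusted p under 0.05 over 27022 probe sets), which is 28.4% and 3.5% of the members. Over all 12817 genes, 20% fell and 12.5% rose, 32.5% together. The median log2 change of the members was -0.72 and that of all genes -0.22. Changes were negative in 200 of 257 members (77.8%) and in 59.3% of all genes. The ranges of the 2 naive and 3 LPS arrays did not overlap for 148 members that were lower after LPS and 17 that were higher, and for 36.6% and 22% of all genes.

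The shift shows on every array. The median level of the members was 8.43 and 8.54 on the log2(signal + 16) scale in naive mice and 7.48 to 7.73 on the 12 arrays of LPS-challenged mice, with or without SMD. The median over all genes was 8.9969 and 8.9997 on the naive arrays and 8.42 to 8.70 on the others. The split between falls and rises depends on how arrays are scaled. With every array brought to the same median, 39 members fell and 20 rose, the members' median was -0.29 and that of all probe sets 0.18. With quantile normalization, 54 fell and 15 rose, and these medians were -0.36 and -0.06. With the deposited scaling the median of all probe sets was -0.24. Without naive replicate 2, 36 members fell and 6 rose, and without naive replicate 1 it was 51 and 5. Beside this shift, 5 of 7 neutrophil markers and 1 of 5 mast cell markers rose, and 5 of 10 macrophage, 5 of 8 B cell and 1 of 6 T cell markers fell.

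**Figure D1:**
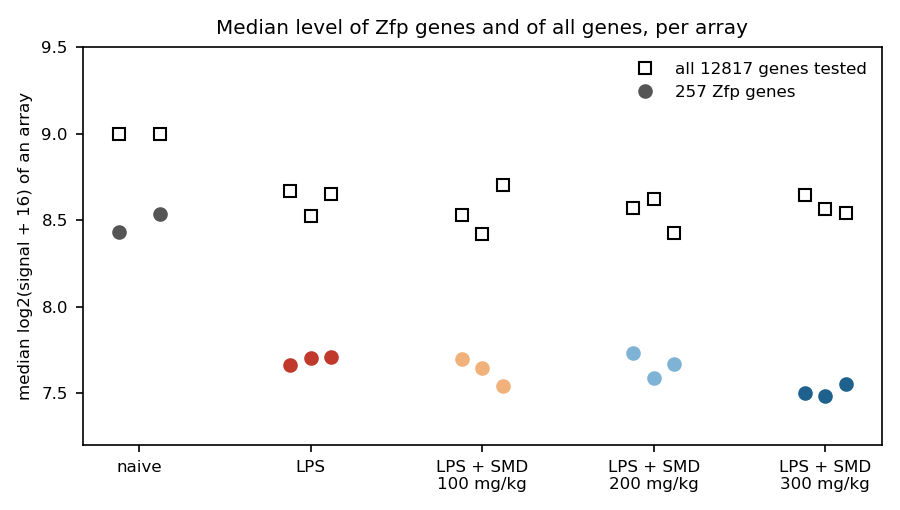
Median of log2(signal + 16) on each of the 14 arrays (vertical axis) by group (horizontal axis), for the 257 Zfp genes (filled circles) and all 12817 genes tested (open squares). The Zfp medians of the naive arrays, 8.43 and 8.54, lie above those of the other 12 arrays, 7.48 to 7.73.

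**Figure D2:**
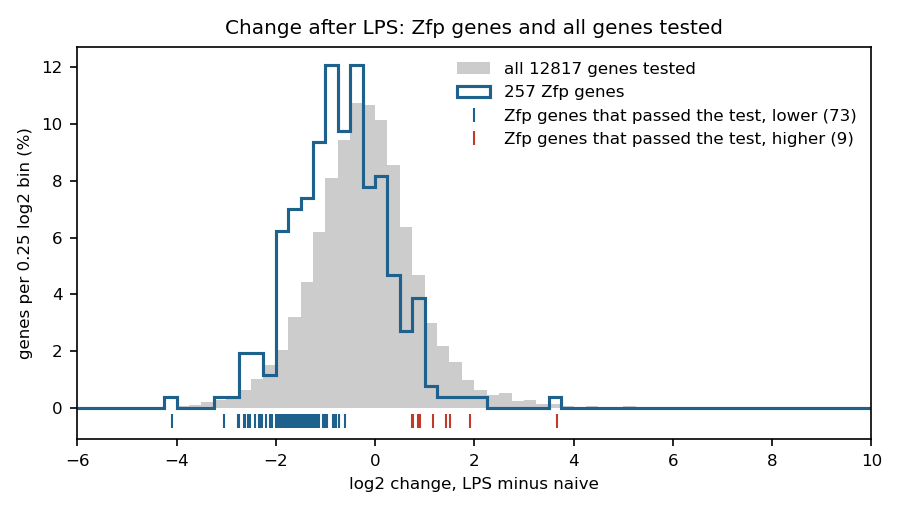
Share of genes (vertical axis, % per bin of 0.25) by log2 change after LPS (horizontal axis), for all 12817 genes tested (grey) and the 257 Zfp genes (blue outline). Ticks under the axis mark the 73 Zfp genes that fell and the 9 that rose, and the Zfp distribution lies to the left of that of all genes, with medians of -0.72 and -0.22.

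The largest rise was that of Zfp503 (Nolz1), a repressor known from the developing striatum and hindbrain. Its signal was 117 and 34.9 on the naive arrays and 1070.4, 1070.0 and 957 on the LPS arrays. All LPS arrays lay above both naive ones. The change was 3.67 ± 0.38 on the log2 scale (± SE; 3 LPS and 2 naive arrays; limma adjusted p = 9.89e-07), and its other probe set rose too. At 300 mg/kg SMD it was lower than with LPS alone, at 188, 344 and 467, a change of -1.67 ± 0.34 (limma adjusted p = 0.00107).

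Zfp593, a homologue of a yeast factor for export of the large ribosomal subunit, rose from 369.5 and 465 to 1707, 1445 and 1714, a change of 1.92 ± 0.20 (limma adjusted p = 1.2e-06). Zfp281, a regulator known from embryonic stem cells, rose from 1226 and 1540.4 to 3803, 5339 and 3038, a change of 1.51 ± 0.22 (limma adjusted p = 3.91e-05), and its other probe set rose as well. For both genes the LPS arrays lay above the naive ones without overlap. The remaining rises among the 8 largest were those of Zfp1 (1.43), Zfp213 (1.17), Zfp516 (0.90), which acts in brown fat, Zfp263 (0.86) and Zfp330 (0.76). The ninth was Zfp574 (0.75). The call of Zfp213 was lost without either naive array or LPS replicates 1 or 3 (adjusted p up to 0.19) and that of Zfp516 without either naive array or LPS replicates 2 or 3 (up to 0.162). Zfp330 lost its call without naive replicate 1 (0.139). With the mean over its 2 probe sets Zfp516 stood at 0.31 (adjusted p = 0.523).

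The largest fall was that of Zfp760, from 1080.0 and 1249 on the naive arrays to 65.4, 116 and 14.6 on the LPS arrays. All LPS arrays were far below both naive arrays, and the change was -4.09 ± 0.54 (limma adjusted p = 1.41e-05). Zfp704 (Gig1), described as a glucocorticoid-induced gene, fell from 259 and 242 to 79.4, 2.3 and 3.6, a change of -3.03 ± 0.69 (limma adjusted p = 0.0026). LPS replicate 1 stood apart from the other LPS arrays for this gene, and all 3 were below both naive arrays.

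Zfp932 fell from 1283 and 1415 to 285, 228 and 164, a change of -2.53 ± 0.34 (limma adjusted p = 1.97e-05), and Zfp395 fell from 567 and 477 to 74.5, 39.0 and 87.9, a change of -2.74 ± 0.60. In both genes each LPS array was below both naive arrays. The other large falls were those of Zfp763 (-2.76), Zfp810 (-2.65), Zfp937 (-2.61) and Zfp449 (-2.56). Their LPS arrays spread widely: Zfp763 was at 193, 126 and 4.5 and Zfp810 at 129, 160.1 and 13.4, with replicate 3 lowest in each. Zfp937 and Zfp449 were dim, at 5.6, 48.4 and 3.2 and 1.9, 11.8 and 18.4 after LPS against 148 and 188 and 106 and 174 in naive mice. Without single arrays the calls of Zfp937 (any of LPS replicates 1 and 3 and the naive arrays, adjusted p up to 0.177), Zfp449 (either naive array, up to 0.138) and Zfp763 (naive replicate 2, 0.0522) were lost. For Zfp937 the call was also lost with a pseudocount of 1 (adjusted p = 0.0512) and with either scaling above (0.0794 and 0.0699). The 65 other members that fell had changes between -0.60 and -2.41.

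**Figure D3:**
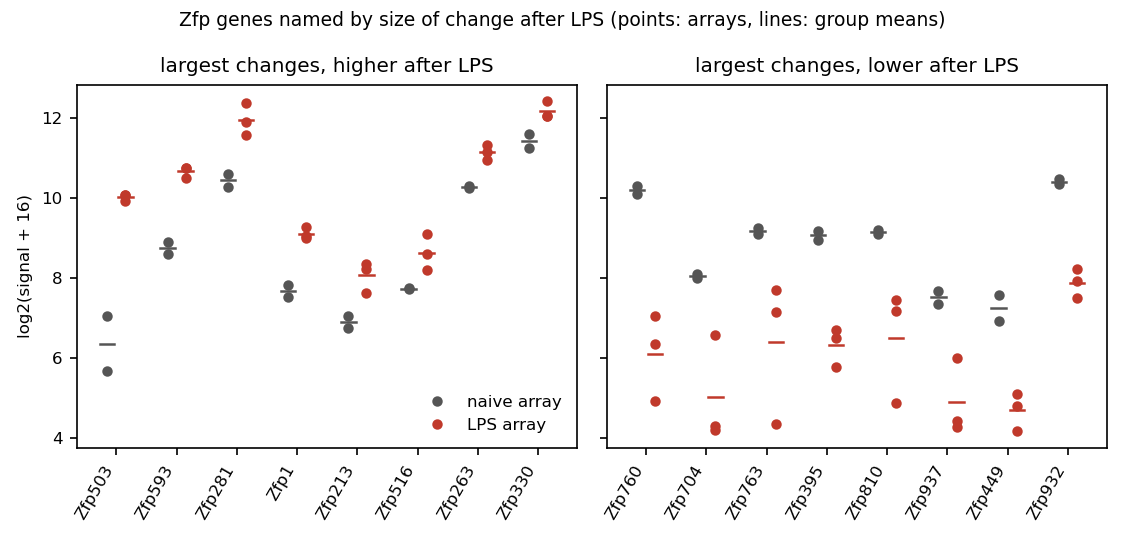
Level as log2(signal + 16) (vertical axis) of the 8 Zfp genes with the largest rises and the 8 with the largest falls (horizontal axis) on the 2 naive arrays (grey) and the 3 LPS arrays (red), with lines at group means. In none of the 16 genes do the ranges of the groups overlap, and the LPS arrays of Zfp760, Zfp704, Zfp763, Zfp810 and Zfp937 spread more widely than the others.

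The groups by role below are given beside all genes, of which 20% fell and 12.5% rose after LPS. Whether a group differs from other genes was not tested. Among members with known immune roles, 2 of 7 fell (28.6%) and 1, Zfp281, rose (14.3%). Zfp608, which restrains expression of the recombination genes Rag1 and Rag2 in thymocytes, fell from 734 and 698 to 204, 216 and 279 (-1.57 ± 0.31, limma adjusted p = 0.000747). Zfp318, which B cells need to make IgD, fell from 1309 and 1213 to 720.0, 728 and 709.7 (-0.80 ± 0.26, limma adjusted p = 0.0275). Its call was lost with either scaling above (adjusted p = 0.403 and 0.0928), with the mean of its probe sets (0.0981) and without LPS replicate 1, LPS replicate 3 or either naive array (up to 0.164). Beside these falls, 5 of 8 B cell markers fell and none rose. Zfp64, Zfp91, Zfp335 and Zfp521 did not pass, with changes of -0.70, -0.38, -0.52 and -1.66.

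Of the 8 members that act on RNA, translation or the spindle, 3 fell (37.5%) and Zfp593 rose (12.5%). Zfp207 (BuGZ), which loads the checkpoint protein Bub3 onto kinetochores, fell from 4462 and 4507 to 1508, 1149 and 947 (-1.91 ± 0.26, limma adjusted p = 2.55e-05), and 2 of its 4 other probe sets shared the direction. Zfp638, a nucleic acid-binding protein that takes part in silencing of unintegrated retroviral DNA, fell from 2069.7 and 2668 to 784, 1106 and 294 (-1.86 ± 0.41, limma adjusted p = 0.00208). Zfp106, an RNA-binding protein needed by motor neurons and muscle, stood at -0.60 ± 0.19 (limma adjusted p = 0.0265) on its brightest probe set and at 0.01 as the mean of its 4 probe sets, and only 1 of the 3 others shared the sign. Its call was also lost with median scaling (adjusted p = 0.685) and without LPS replicates 1 or 3 or either naive array (up to 0.16). Zfp598, the ubiquitin ligase that marks collided ribosomes, did not pass at 0.32, but passed with median scaling at 0.75.

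Of the 3 tested members that silence repeats or maintain imprints, 2 fell, 66.7% of a very small group. Zfp809, which silences retroviruses through their tRNA primer binding site, fell from 1735 and 1630.1 to 776, 711 and 509 (-1.34 ± 0.23, limma adjusted p = 0.000249). Zfp445, a keeper of genomic imprints, fell from 8200.2 and 7577 to 3376, 4579 and 2493 (-1.22 ± 0.26, limma adjusted p = 0.00181). All LPS arrays were below all naive arrays in both. Of 14 members with roles in chromatin or general transcription, 3 fell and 2, Zfp503 and Zfp516, rose. These are 21.4% and 14.3%, near the 20% and 12.5% of all genes. Zfp292 fell from 1187 and 1123 to 341, 407 and 280.0 (-1.72 ± 0.28, limma adjusted p = 0.000142), with its 3 other probe sets, and the other falls were those of Zfp217 (-0.73) and Zfp644 (-1.02), partners of the CtBP and G9a corepressors. Zfp148 (-0.79), Zfp384 (0.22) and Zfp451 (-0.19) did not pass. For Zfp148 all 5 other probe sets were lower too, and the mean of its probe sets, at -1.10, passed (adjusted p = 0.00358).

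Members that lie side by side in the genome are described together here. They were joined into a neighbourhood where at most 5 protein-coding genes lay between them, a rule chosen after the values were seen, and 12 neighbourhoods held at least 4 members, 96 in all. The largest group, 19 members from Zfp160 to Zfp213 on chromosome 17, had 12 members that fell and 1 that rose. This is 63.2%, against 25.6% of the 238 members elsewhere, and the median change was -1.54 against -0.68. Zfp760, Zfp40, Zfp946, Zfp943, Zfp945, Zfp758, Zfp942, Zfp53, Zfp160, Zfp995, Zfp944 and Zfp677 fell, and Zfp213, the last of the row, rose. Zfp51, Zfp52, Zfp54, Zfp948, Zfp983 and Zfp994 did not pass. In the second, 12 members from Zfp712 to Zfp493, 2 fell after LPS with a median of -0.996. Over all 12 neighbourhoods the share that fell was 28.1%, against 28.6% of members in none. Probe sets of near-identical paralogues can share signal, so neighbours are not independent.

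**Figure D4:**
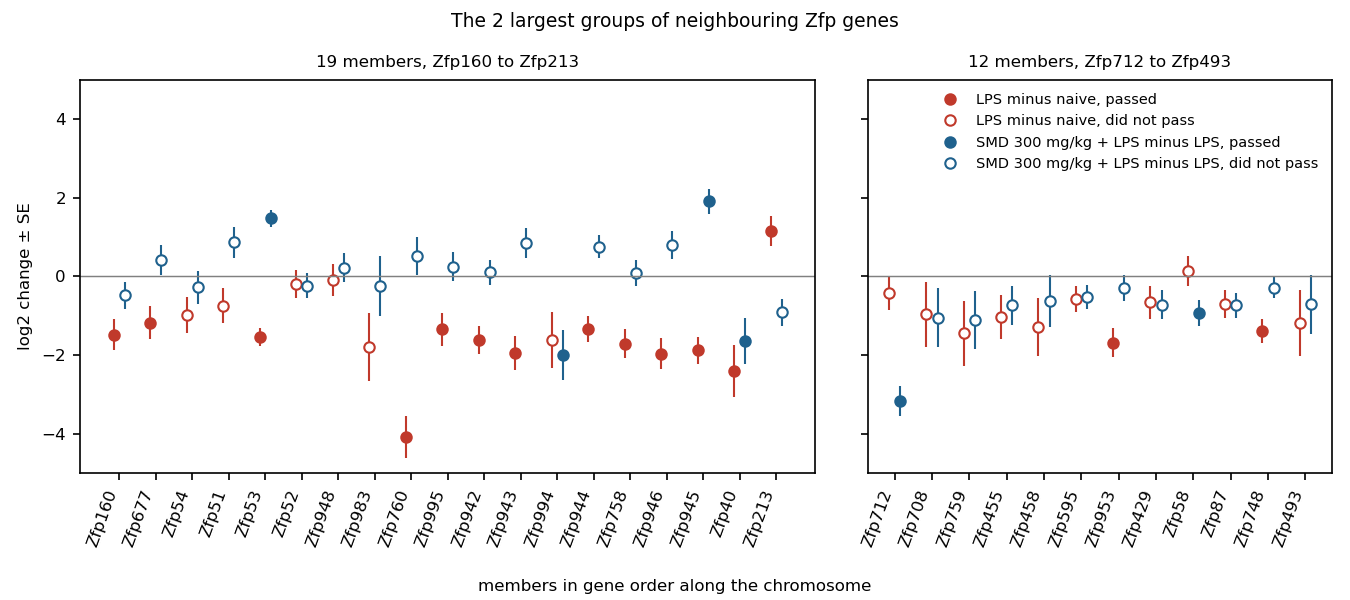
Log2 change ± SE (vertical axis) for the members of the 2 largest neighbourhoods in gene order (horizontal axis), for LPS against naive (red) and SMD at 300 mg/kg with LPS against LPS (blue), which share the LPS arrays. Filled points passed the test, and after LPS 12 of 19 members on the left fell. At 300 mg/kg all 12 on the right had changes below 0, as did 57.6% of all 257 members.

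The 3 doses of SMD were each compared with LPS alone to ask what SMD added. These are the same 3 LPS arrays as in the comparison with naive mice, so a low LPS value enters both. At 100 mg/kg, 0 of 257 members passed, as did 0% of all genes (limma adjusted p under 0.05; 1276 of all genes had an unadjusted p under 0.05). At an unadjusted p under 0.05 there were 9 higher and 5 lower members, and the smallest adjusted p was 0.392. The largest of these differences were positive for Zfp248 (1.91 ± 0.61), Zfp536 (1.53 ± 0.55) and Zfp719 (0.74 ± 0.28) and negative for Zfp668 (-1.65 ± 0.70), Zfp940 (-1.58 ± 0.64) and Zfp40 (-1.51 ± 0.59). Zfp248 was at 3.2, 3.5 and 8.6 after LPS and at 91.2, 85.8 and 28.4 with 100 mg/kg SMD, so its arrays did not overlap, but the LPS signals were below the limit for testing. The 16 members named in every comparison had changes from -0.19 (Zfp207) to 0.41 (Zfp638), and none passed. Without 100 mg/kg replicate 3, 1 member passed.

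At 200 mg/kg, 14 members rose and 4 fell. These are 5.45% and 1.56% of the members, against 9.03% and 5.92% of all genes (14.9% together). Zfp704, which had fallen after LPS, was at 108, 141 and 151 against 79.4, 2.3 and 3.6 with LPS alone (2.19 ± 0.61, limma adjusted p = 0.0256). Zfp945 was at 441, 288 and 326 against 103, 179.5 and 109 (1.34 ± 0.31, limma adjusted p = 0.00973), and Zfp560 at 898, 759 and 866 against 286, 455 and 242 (1.36 ± 0.26, limma adjusted p = 0.00267). The mean of the 2 probe sets of Zfp560 stood at 0.76 and did not pass (0.143). In all 3 genes each SMD array was above each LPS array. Zfp770 (1.06) and Zfp871 (0.96) followed in size. As the mean of their probe sets these stood at 0.05 (limma adjusted p = 0.962) and 0.45 (0.277) and did not pass, and neither did Zfp281 (0.43, 0.164). The other rises were those of Zfp367, Zfp512, Zfp53, Zfp445, Zfp106, Zfp91, Zfp281, Zfp217 and Zfp110, between 0.55 and 0.94.

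The 4 falls were those of Zfp623, Zfp672, Zfp513 and Zfp574. Zfp672 was at 263, 200.4 and 259 against 825, 564 and 664 with LPS alone (-1.44 ± 0.26, limma adjusted p = 0.00195), and Zfp623 at 115, 168 and 101 against 537, 275 and 447 (-1.58 ± 0.42, limma adjusted p = 0.0185). Neither overlapped between groups. Zfp513 (-1.42) and Zfp574 (-1.01) were lower on every array as well. Zfp91, a ubiquitin ligase of the noncanonical NF-kB pathway, rose on its brightest probe set (0.71), but the mean over its 3 probe sets was -0.30 and both others had the opposite sign.

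Of the other members named in every comparison, Zfp64, Zfp148, Zfp207, Zfp292, Zfp318, Zfp335, Zfp384, Zfp451, Zfp521, Zfp598, Zfp608, Zfp638 and Zfp809 did not pass, with changes from -0.32 (Zfp335) to 0.89 (Zfp638).

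The count at this dose rested on single arrays. In place of 18, it was 6 when LPS replicate 3 was left out, 10 for LPS replicate 1 and 11 for 200 mg/kg replicate 1. Single calls were lost without an array for Zfp704, Zfp281, Zfp623, Zfp513, Zfp945, Zfp106, Zfp871 and Zfp91, with adjusted p between 0.0508 and 0.178. With the mean of all probe sets of a gene, 10 members passed.

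At 300 mg/kg, 25 members rose and 26 fell, 9.73% and 10.1% of the members against 17.7% and 14% of all genes (31.7% together). The largest rise was again that of Zfp704, at 121, 137 and 169 (2.27 ± 0.61, limma adjusted p = 0.0094). Zfp945 reached 497, 606 and 472 (1.91 ± 0.31, limma adjusted p = 0.000166), beside naive signals of 499.5 and 521. Zfp521, a regulator of B-lymphoid and stem cell fate, was at 186, 189 and 125 against 33.1, 19.6 and 35.0 with LPS alone (2.01 ± 0.63, limma adjusted p = 0.0221), and its other probe set had the opposite sign. The mean of both was 0.53 and did not pass (limma adjusted p = 0.55). All SMD arrays of these 3 genes were above the LPS arrays. Zfp536 (1.85) and Zfp449 (1.83) completed the 5 largest, with LPS signals of 4.0, 3.4 and 25.4 and 1.9, 11.8 and 18.4.

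Rises at this dose also took in members with known roles. Zfp91 was at 4933, 5476 and 5009.5 against 2397, 3163 and 2062 (1.03 ± 0.16, limma adjusted p = 0.000126) and Zfp106 at 7166, 7851 and 7699 against 2960.1, 4811 and 3654 (1.02 ± 0.17, limma adjusted p = 0.00022), where all 3 other probe sets of Zfp106 were higher too and 1 of 2 of Zfp91. The mean of the 3 probe sets of Zfp91 stood at 0.16 and did not pass (0.739). Zfp110 (NRIF), which binds the neurotrophin receptor p75, was at 3314, 3065 and 3205 against 1451, 2030.0 and 1666 (0.90 ± 0.17, limma adjusted p = 0.000483), and its 2 other probe sets were higher. Zfp148, a binder of GC-rich promoters (0.88), Zfp292 (0.84) and Zfp622, a ribosome maturation factor (0.43), rose as well. With the mean of a gene's probe sets Zfp148 (0.25, limma adjusted p = 0.478) and Zfp292 (0.52, 0.101) did not pass. Beside these rises, 3 of 8 B cell, 4 of 6 T cell, 3 of 10 macrophage, 3 of 7 neutrophil and 1 of 5 mast cell markers rose, and 1 macrophage and 1 neutrophil marker fell.

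The largest fall at 300 mg/kg was that of Zfp712. Its signal was 5.1, 16.9 and 4.7, against 161, 247 and 207 with LPS alone (-3.16 ± 0.39, limma adjusted p = 9.91e-06). All 3 SMD arrays were below the limit for testing of 33.9. Zfp267 was at 42.4, 4.9 and 4.6 against 149, 179 and 185 (-2.67 ± 0.47, limma adjusted p = 0.00033), Zfp623 at 19.5, 79.1 and 105 (-2.50 ± 0.42, limma adjusted p = 0.000187) and Zfp672 at 154, 137 and 115 (-2.20 ± 0.26, limma adjusted p = 7.26e-06). No array of these genes overlapped with the LPS group. Zfp668 fell to 31.7, 50.7 and 4.3 (-2.02 ± 0.70, limma adjusted p = 0.04), a call lost with the mean of its probe sets (-1.45, 0.0989). Zfp451, a SUMO ligase, fell by 0.57 (limma adjusted p = 0.0448), and this call was lost with either scaling above, with the mean of its probe sets (-0.23, 0.541) and without each of 10 single arrays in turn. Zfp64, Zfp207, Zfp281, Zfp318, Zfp335, Zfp384, Zfp598, Zfp608, Zfp638 and Zfp809 did not pass, with changes from -0.51 (Zfp809) to 0.66 (Zfp64). As the mean of its probe sets Zfp207 stood at -0.85 and passed (limma adjusted p = 0.0177).

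The actin 3'/5' ratio was 6.99 to 18.9 on the 3 arrays of this dose and 1.93 to 5.86 with LPS alone, and its part was not tested. Leaving out 300 mg/kg replicate 2 reduced the count at this dose from 51 to 33. Single calls were lost without an array for Zfp449 (9 arrays), Zfp668 (6), Zfp148 (4), Zfp292 (3), Zfp521 (3) and Zfp536 (2), with adjusted p from 0.0503 to 0.16. Leaving out 1 array at a time did not end the calls of Zfp704, Zfp945, Zfp712, Zfp267, Zfp623 and Zfp672 at 300 mg/kg. The members' median change was -0.08 with the deposited scaling, 0.02 with median scaling and 0.001 with quantile normalization, so it has no settled direction. In the neighbourhood from Zfp712 to Zfp493, 12 of 12 members had a negative change at this dose, with a median of -0.72. Only Zfp712 and Zfp58 passed. Changes were negative in 57.6% of all 257 members and in 47.7% of all genes. In the neighbourhood from Zfp160 to Zfp213 it was 7 of 19 members, and in that from Zfp84 to Zfp566 10 of 11.

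A linear trend over the dose, with LPS alone as dose 0, was fitted to the 12 arrays of LPS-challenged mice. 24 members had a rising slope and 23 a falling one, 9.34% and 8.95%, against 17.4% and 13.8% of all genes (31.2% together). With median scaling the split was 26 to 15 and with quantile normalization 25 to 16. Slopes are given in log2 units per 100 mg/kg. Among members that passed, the steepest rising ones were Zfp704 (0.84 ± 0.21), Zfp945 (0.64 ± 0.10), Zfp449 (0.63 ± 0.21), Zfp560 (0.61 ± 0.08) and Zfp53 (0.56 ± 0.09).

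Zfp53 was at 585, 685 and 394 after LPS, 506, 486 and 397 at 100 mg/kg, 1044, 1056 and 991 at 200 mg/kg and 1445, 1571 and 1599 at 300 mg/kg, with a limma adjusted p of 0.00015 for the slope. The 100 mg/kg arrays lay within the LPS range, and the arrays of the higher doses lay above it in separate ranges. Its naive signals were 1392 and 1851. Zfp560 was at 286, 455 and 242, 609, 432 and 424, 898, 759 and 866 and 867, 1371 and 1159 in the same order (limma adjusted p = 2.59e-05), but its other probe set had the opposite sign and the mean of both gave a slope of 0.09 (0.644).

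The steepest falling slopes were those of Zfp712 (-0.99 ± 0.17), Zfp623 (-0.85 ± 0.13), Zfp267 (-0.83 ± 0.17), Zfp672 (-0.75 ± 0.08) and Zfp994 (-0.64 ± 0.22). The other probe set of Zfp267 had the opposite sign, and the mean of both gave a slope of -0.41 that did not pass (limma adjusted p = 0.0762). Zfp672 was at 825, 564 and 664 after LPS, 399, 485 and 526 at 100 mg/kg, 263, 200.4 and 259 at 200 mg/kg and 154, 137 and 115 at 300 mg/kg (limma adjusted p = 3.73e-06). No array of one dose overlapped with those of the next. Zfp712 was at 161, 247 and 207, 184, 166 and 154 and 87.0, 103 and 184 before the drop to 5.1, 16.9 and 4.7, and the direct difference between 300 and 200 mg/kg was -2.47 ± 0.39 (limma adjusted p = 0.00216). Zfp994 fell to 6.9, 13.1 and 205 at 300 mg/kg, where replicate 3 stood within the LPS range, and its slope lost its call without LPS replicates 1 or 2 or 300 mg/kg replicates 1 or 2 (adjusted p up to 0.144). The slope of Zfp449 lost its call without 4 single arrays, LPS replicates 1 and 2 and 300 mg/kg replicates 1 and 3 (up to 0.102).

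Of the 16 members named in every comparison, Zfp91 (0.37, limma adjusted p = 9.06e-05), Zfp106 (0.34, 0.000148), Zfp292 (0.28, 0.0145) and Zfp148 (0.28, 0.0301) had rising slopes, and the SUMO ligase Zfp451 a falling one (-0.19, 0.0451). As the mean of their probe sets Zfp91 (0.05, 0.751), Zfp292 (0.20, 0.0632), Zfp148 (0.10, 0.38) and Zfp451 (-0.09, 0.554) did not pass, whereas Zfp207 did (-0.28, 0.0177). The slope of Zfp451 lost its call with either scaling above (0.166 and 0.0865) and without each of 9 single arrays in turn, that of Zfp148 without each of 4, LPS replicates 1 and 3 and 300 mg/kg replicates 2 and 3, and that of Zfp292 without 300 mg/kg replicate 3. The other 11 had slopes from -0.15 (Zfp809) to 0.57 (Zfp521) and did not pass.

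**Figure D5:**
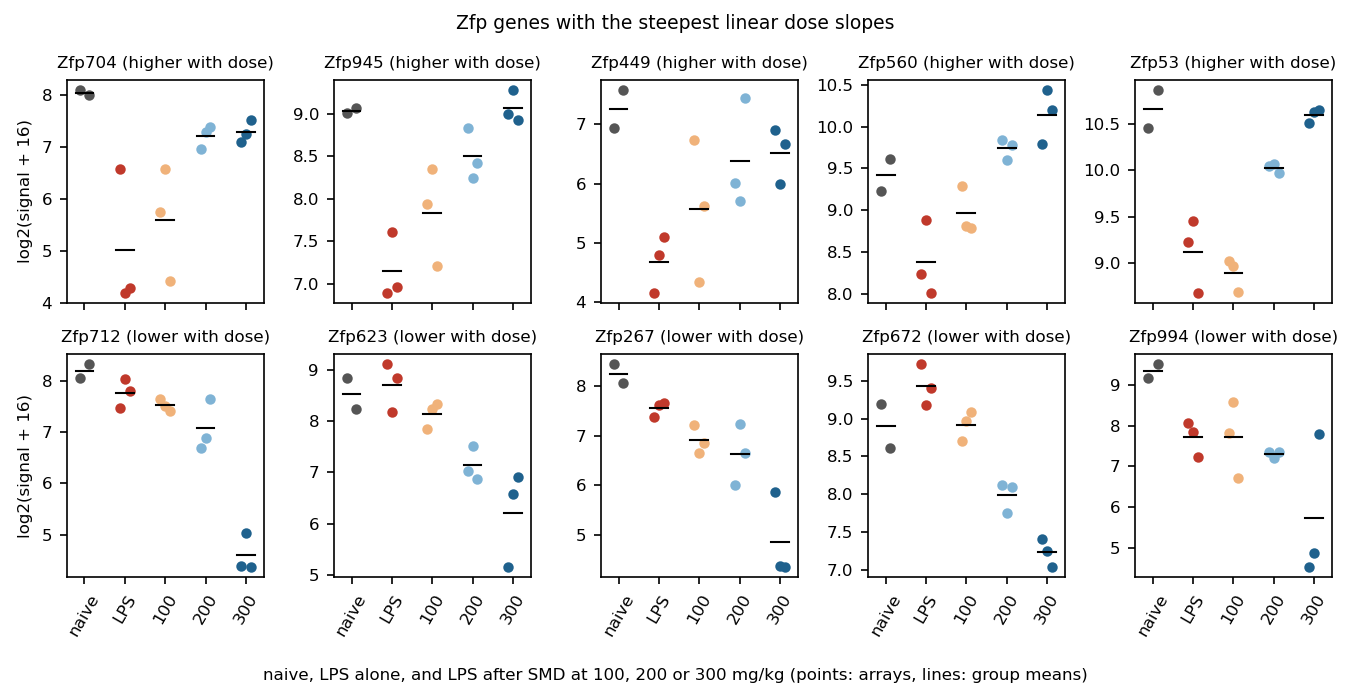
Level as log2(signal + 16) (vertical axis, its own range in each panel) by group (horizontal axis). Shown are the Zfp genes with the 5 steepest rising slopes (top) and the 5 steepest falling slopes (bottom) among those that passed the test. Points are arrays and lines group means. Zfp672 and Zfp623 decrease over the doses, while Zfp712 drops mainly at 300 mg/kg, to signals of 5.1, 16.9 and 4.7.

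The doses were also compared with each other. Between 100 and 200 mg/kg, 1 member passed, against 1.33% of all genes (1.03% higher, 0.296% lower): Zfp53 was higher at 200 mg/kg (1.13 ± 0.21, limma adjusted p = 0.0155), and this call was lost without 100 mg/kg replicates 1 or 3 or 200 mg/kg replicates 1 or 2, when 0 members passed. Between 100 and 300 mg/kg, 14 members were higher and 19 lower at the high dose (12.8% together, against 21.5% of all genes, of which 12.1% higher and 9.36% lower), or 19 in all without 300 mg/kg replicate 2. Among those that passed, Zfp362 (1.499), Zfp53 (1.70) and Zfp521 (1.96) showed the largest increases and Zfp712 (-2.92), Zfp691 (-2.25) and Zfp267 (-2.03) the largest decreases. Zfp704 did not pass between 100 and 300 mg/kg. Zfp503, which LPS had raised, was lower by 1.92 at 300 than at 100 mg/kg, and Zfp809 by 0.66. Between 200 and 300 mg/kg, 3 members were higher and 10 lower (5.06%, against 6.7% of all genes, of which 2.72% higher and 3.99% lower). That count was 3, 5 and 2 without 200 mg/kg replicates 1, 2 and 3, 5 and 3 without 300 mg/kg replicates 1 and 2, and 7 without either naive array.

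Of 21 genes for the corepressors through which KRAB proteins act, 5 fell and 1 rose after LPS, 28.6% in all against 32.5% of all genes, which is near the background. Atf7ip, a cofactor of Setdb1, fell (-2.29 ± 0.21, limma adjusted p = 1.7e-07), as did Cbx5 (HP1 alpha, -1.71 ± 0.33), Dnmt1 (-1.47 ± 0.28), the DNA methylation reader Uhrf1 (-1.46 ± 0.45) and the NuRD helicase Chd3 (-1.33 ± 0.44). Gatad2a of NuRD rose (1.16 ± 0.37). Trim28 itself did not pass after LPS (0.39 ± 0.21, limma adjusted p = 0.181) and fell at 200 mg/kg (-0.80 ± 0.18) and 300 mg/kg SMD (-0.67 ± 0.18, limma adjusted p = 0.0105). At 300 mg/kg 3 corepressor genes rose (Atf7ip, Dnmt1 and Gatad2b) and 8 fell, the largest being Mta2 (-2.32 ± 0.43) and Chd4 (-2.30 ± 0.60) of NuRD. That is 52.4% at 300 mg/kg, against 31.7% of all genes. At 200 mg/kg 2 rose and 5 fell, 33.3% against 14.9%. Whether the list differs from other genes was not tested.

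Other zinc finger families had these counts, beside 20% of all genes that fell and 12.5% that rose after LPS and 14% and 17.7% at 300 mg/kg. Of 37 Zbtb genes, 9 fell and 3 rose after LPS (median -0.42), and at 300 mg/kg SMD 10 rose and 3 fell (median 0.21). Of 19 Zkscan and Zscan genes, 5 fell and 0 rose after LPS (-0.79), and 1 fell at 300 mg/kg. Of 14 Klf genes, 3 fell and 1 rose after LPS (-0.21), and 5 rose and 3 fell at 300 mg/kg. Of 17 Zc3h genes, which carry fingers of the CCCH class, 2 fell and 2 rose after LPS (0.06), and 4 rose and 3 fell at 300 mg/kg. Whether the Zfp members differed from these families was not tested.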

How the data were processed

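For each of 14 arrays the authors deposited a linear intensity of every probe set, and the submitters' processing notes name MAS5, without a version. Each array's mean, without the lowest and highest 2% of its probe sets, was 500, so values are relative to the rest of an array. Such scaling turns a shift of most transcripts into an opposite shift of the others. Of 45037 probe sets that are no controls, 34945 have a single symbol in the platform annotation, 932 several and 9160 none, and those with several were not named. The platform's symbols were used as given, and for 256 of 257 members the Entrez identifier carried the same symbol among RefSeq protein-coding genes of GRCm38.p6.

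Values were taken as log2(signal + 16), and probe sets among the dimmest 40% by mean (a signal of 33.9 or less) were left out. With limma 3.58.1 in R 4.3.3 group means were fitted on all 14 arrays together for the 27022 remaining probe sets, with a variance trend, two-sided tests and Benjamini-Hochberg adjustment. The dose trend used 12 arrays. The pseudocount understates changes of dim genes. The code of the test was checked on simulated data with few, large changes and independent noise. These arrays differ from that setting, so the check does not bear on the calls above. Sequences and gene order were handled with Python 3.11.15 (pandas 2.3.3, numpy 2.4.6) and figures drawn with matplotlib 3.10.9.

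The members, gene lists and tests were chosen with earlier results of these data known. Named in every comparison were Zfp64, Zfp91, Zfp106, Zfp148, Zfp207, Zfp281, Zfp292, Zfp318, Zfp335, Zfp384, Zfp451, Zfp521, Zfp598, Zfp608, Zfp638 and Zfp809. Added were the 8 largest passing changes each way after LPS and the 5 largest each way per dose, with groups not overlapping. For the slope the 5 largest passing each way were added, without a rule on overlap. Where nothing passed, the 3 largest each way at unadjusted p under 0.05 were named. Others were chosen after their values were seen. Of the members, 163 had 1 tested probe set and the other 94 had several. Alternatives were other pseudocounts, filters, scalings, array weights, a replicate block, fits of only the groups compared, the mean of a gene's probe sets and leaving out each array. The number of arrays per group limits the precision.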

Additional observations from a re-analysis of the deposited data

Results flagged for a closer look

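For 15 members named by the rule in any comparison, the difference from LPS at 300 mg/kg SMD differed from that at 100 mg/kg by limma's direct test of the 2 doses (adjusted p under 0.05, all values as log2 differences of 300 minus 100 mg/kg). It was higher at 300 mg/kg for Zfp521 (1.96), Zfp53 (1.70), Zfp945 (1.24), Zfp560 (1.18), Zfp91 (0.88) and Zfp106 (0.66). It was lower for Zfp712 (-2.92), Zfp267 (-2.03), Zfp994 (-1.98), Zfp623 (-1.93), Zfp503 (-1.92), Zfp672 (-1.68), Zfp719 (-1.18), Zfp809 (-0.66) and Zfp263 (-0.57). Zfp994 had 300 mg/kg signals of 6.9, 13.1 and 205, so 1 of 3 arrays did not share the drop. Zfp712 and Zfp267 had signals of 5.1, 16.9 and 4.7 and of 42.4, 4.9 and 4.6 at 300 mg/kg, and at such low signals the size of a log2 change depends on the pseudocount. Actin 3'/5' ratios were 6.21 at 100 mg/kg and 14.02 at 300 mg/kg on average, and their part in these differences was not tested.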

How the results depend on the processing

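Of 82 members that passed after LPS, 48 also passed with median scaling and 62 with quantile normalization. The rises after LPS numbered 20 and 15 and the falls 39 and 54 under these scalings. Array weights gave 1 member at 100 mg/kg, 32 at 200 mg/kg and 2 between 100 and 200 mg/kg. The mean of all probe sets of a gene gave 10 at 200 mg/kg, 0 between 100 and 200 mg/kg and 8 between 200 and 300 mg/kg. Fits of only the groups compared gave 21 between 100 and 300 mg/kg and 4 between 200 and 300 mg/kg, where fitting without the filter gave 7. The mean of probe sets reversed Zfp106 after LPS (0.0076) and Zfp91 at 200 mg/kg (-0.3048), and the scalings reversed the members' median at 300 mg/kg (0.0183 and 0.0014). The causes were not tested.

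With single arrays left out the totals ranged from 42 to 90 after LPS (5 to 10 rises, 36 to 81 falls), 0 to 1 at 100, 6 to 27 at 200 and 33 to 57 at 300 mg/kg. They ranged from 34 to 50 for the slope, 0 to 1 between 100 and 200 mg/kg, 19 to 34 between 100 and 300 mg/kg and 2 to 13 between 200 and 300 mg/kg. A check on a named member counted as kept where the member passed, or did not pass, as before. A change of sign counted against it only where the member passed in either fit. Kept were 691 of 739 checks after LPS, all 522 at 100 mg/kg and 569 of 598 at 200 mg/kg. At 300 mg/kg it was 535 of 595 and for the slope 558 of 595. No named member passed at 100 mg/kg in any check, so the 522 do not show that directions were kept.

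The replicate numbers of the titles did not pair the arrays: same-numbered arrays of different groups had correlations of -0.127 to 0.185 in their deviations, and 5 of 14 arrays correlated best with their own number. A replicate block gave 9 rises and 68 falls after LPS, 14 and 4 at 200 mg/kg, 24 and 22 at 300 mg/kg and 24 and 23 for the slope. Low signals, under about 33.9, limit the sizes of changes of dim members, and the 2 naive arrays limit the comparison with LPS.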
